A study of Mus musculus with 6 samples.

Results

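The 10 genes described here, Pdpn, Cd44, Fbln7, Ptprz1, Irx5, Capg, Ngef, Pdzd2, Tnc and Rasgrf1, code for surface, matrix and signalling proteins linked to osteocytes, the cells embedded in bone matrix. They were taken by name from the 21172 rows of the expression tables that carry a gene symbol, and each had a row. RNA was sequenced from femurs of C57BL/6 mice in 2 groups of 3 libraries. OE mice carried 9.6kb DMP1-Cre and R26-Wnt7b, a Wnt7b allele at the R26 locus that Cre switches on, and all were homozygotes, per the labels. Ctrl mice were their littermates with R26-Wnt7b and without Cre, so R26-Wnt7b was shared by both groups. The Cre was driven by Dmp1 sequence, which is active in mature osteoblasts as well as osteocytes. The labels describe the femurs as freed of cartilage and marrow cells, and give no age and no link between a library and an animal. P-values therefore cover only the spread among these 6 samples, which may be technical.

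Osteocytes join each other through long dendrites that run in fine canals of the mineralised matrix. Podoplanin (Pdpn, also called E11) is a surface glycoprotein known as an early marker of the osteocyte and as a promoter of dendrite growth, and it binds CD44 and the actin linkers ezrin and moesin. CD44 is a receptor for hyaluronan and osteopontin that osteocytes share with most leukocytes. WNT7B is a secreted WNT ligand known to raise bone formation.

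Wnt7b itself, the switched-on gene, read 2.49 FPKM (fragments per kilobase, relative to all fragments mapped) for OE 1, 0.661 for OE 2 and 0.295 for OE 3. The library labelled Ctrl 1 held 0.909 FPKM of it, Ctrl 2 held 0.00833 and Ctrl 3 listed it at 0. The library labelled Ctrl 1 thus lay inside the OE range, against its label, and results that rest on it are given with and without it. The labelled tissue was also checked. The osteoblast markers averaged 8.08, 7.65 and 7.23 for OE 1, 2 and 3 on the log2(FPKM + 1) scale, then 7.63 for the library labelled Ctrl 1, 4.52 for Ctrl 2 and 4.49 for Ctrl 3. Col1a1 and Col1a2 were left out of this mean, because OE 1 and the library labelled Ctrl 1 listed them at 0. Neutrophil markers were abundant in every library at 11.3 to 12.6 in OE and 12.2 to 12.6 in Ctrl on the same scale, although the femurs were labelled as free of marrow cells. The femurs were labelled as freed of cartilage too, yet cartilage markers averaged 3.70 to 4.68 in OE on this scale. They averaged 4.07 for the library labelled Ctrl 1, 1.02 for Ctrl 2 and 1.14 for Ctrl 3. Relative depth ran from 1 to 1.18 between libraries, absolute depth is unknown, and 11627 to 12258 genes reached 1 FPKM.

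The genes were sorted by their pattern over libraries, since no marrow library was analysed here. A gene had the bone pattern where Ctrl 2 and Ctrl 3, the libraries low in osteoblast markers, both lay below each of the other 4. It was called bone-restricted where the lowest of those 4 was also over 3 times the higher of Ctrl 2 and Ctrl 3, and intermediate where the gap was smaller. A gene without the pattern was called also high in marrow where Ctrl 2 and Ctrl 3 both held at least 10 FPKM. Of the 10 genes, 6 had the bone pattern, which 16.7% of the 12177 genes tested had. Ptprz1, Fbln7, Ngef and Irx5, 4 of the 10, were bone-restricted, which 3.0% of genes tested were. Tnc and Pdzd2 were intermediate, Cd44 and Capg were also high in marrow, Rasgrf1 was in no class, and Pdpn was listed at 0. The also high in marrow rule asks only for lack of the pattern and a level, and Rhoa and Cdc42 met it too. Its share over all genes tested was not computed, so nothing is read from that count. Fbln7, Ptprz1 and Ngef reached 1 FPKM only in the 4 libraries other than Ctrl 2 and Ctrl 3, so they passed the filter on low values only through the libraries where they were high. The pattern does not place a gene in bone cells alone. The same bone-restricted gap was met by 9 of 12 osteoblast markers, all 10 cartilage markers, 6 of 7 skeletal muscle markers and 5 of 7 periosteum and tendon markers tested. Nor is that gap the rule for osteocyte genes. Of 11 other osteocyte genes tested, 9 had the bone pattern and only 4 were bone-restricted. Sost and Mepe had the pattern with a smaller gap, as Tnc and Pdzd2 did. The osteoblast markers Col1a1 and Col1a2 could not have the bone pattern, as OE 1 and the library labelled Ctrl 1 listed them at 0. Runx2, also an osteoblast marker, was measured in every library and lacked the pattern. Its 10.9 FPKM in Ctrl 3 exceeded the 10.2 of OE 2 and the 8.87 of the library labelled Ctrl 1. Ctrl 2 was lowest for it at 7.46.

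Fbln7, Ptprz1 and Ngef are the bone-restricted genes with a RefSeq promoter in the table used (assembly GRCm38.p6). They are shown because the genes share the bone-restricted pattern, as 250 bases before and 50 bases after the start of transcription, 5′ to 3′ on the gene's strand. Fbln7 lies at chr2:128863682-128863981 on the plus strand, Ptprz1 at chr6:22875252-22875551 on the plus strand and Ngef at chr1:87573821-87574120 on the minus strand. Capitals mark the only core found of the 2 that were searched on both strands, CTTTGA or CTTTGT (TCF/LEF factors, which act at the end of the canonical WNT pathway) and AACCACA (runt factors, the RUNX2 family).
Fbln7: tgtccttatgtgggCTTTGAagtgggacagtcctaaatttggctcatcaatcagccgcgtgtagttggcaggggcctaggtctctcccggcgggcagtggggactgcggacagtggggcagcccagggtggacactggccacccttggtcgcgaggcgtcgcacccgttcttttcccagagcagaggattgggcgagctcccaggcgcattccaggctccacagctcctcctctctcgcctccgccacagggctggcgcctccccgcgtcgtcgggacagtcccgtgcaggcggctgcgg
Ptprz1: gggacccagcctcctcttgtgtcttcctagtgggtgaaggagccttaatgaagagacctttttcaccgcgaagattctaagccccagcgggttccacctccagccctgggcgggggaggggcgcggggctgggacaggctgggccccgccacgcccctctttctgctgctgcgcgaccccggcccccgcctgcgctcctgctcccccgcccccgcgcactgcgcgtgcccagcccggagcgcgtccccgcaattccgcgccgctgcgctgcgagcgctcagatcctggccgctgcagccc
Ngef: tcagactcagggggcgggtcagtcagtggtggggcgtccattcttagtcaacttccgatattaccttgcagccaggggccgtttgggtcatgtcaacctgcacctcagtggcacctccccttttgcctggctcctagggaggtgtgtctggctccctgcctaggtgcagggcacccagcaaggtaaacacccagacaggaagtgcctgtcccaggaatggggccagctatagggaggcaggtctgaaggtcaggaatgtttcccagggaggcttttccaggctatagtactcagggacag
The Fbln7 promoter holds CTTTGA from base -236 on the plus strand, and the other 2 promoters hold neither core. G and C made up 66.0% of the Fbln7 sequence, 71.7% of Ptprz1 and 58.3% of Ngef. Over all 10 genes, 9 had a promoter in the table. The TCF/LEF core was in 3 of the 9 (Fbln7, Pdpn and Rasgrf1), and 31.2% of the 32851 promoters in the table hold it. The runt core was in 0 of the 9 and in 5.3% of all promoters. The absence of a core says only that these letters are not in this window.

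The bone-restricted genes span a matrix protein, a receptor, an intracellular exchange factor and a transcription factor. All 4 were highest in OE 1, and all 4 were lower in Ctrl 2 and Ctrl 3 than in any other library. The library labelled Ctrl 1 was near the OE libraries for each of them. Because these are bulk samples, fewer cells of a type and less RNA per cell cannot be told apart.

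Fbln7 codes for fibulin 7, a secreted matrix protein of the fibulin family (ENSMUSG00000027386, mm10 chr2:128862981-128897034, plus strand, up to 9 exons). Its level was 2.68 FPKM for OE 1, 1.81 for OE 2 and 1.63 for OE 3, against 1.91 for the library labelled Ctrl 1, 0.225 for Ctrl 2 and 0.295 for Ctrl 3. The groups overlapped only through the library labelled Ctrl 1, which exceeded OE 2 and OE 3. OE averaged 2.04 ± 0.560 FPKM and Ctrl 0.810 ± 0.954 (SD, n = 3 each).

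Ptprz1 codes for a receptor tyrosine phosphatase of the cell surface that binds pleiotrophin and midkine and is well known from glia (ENSMUSG00000068748, chr6:22875502-23052916, plus strand, up to 30 exons). It measured 8.88 FPKM for OE 1, 3.86 for OE 2 and 3.63 for OE 3. The library labelled Ctrl 1 held 3.53, Ctrl 2 held 0.463 and Ctrl 3 held 0.608. It was the single one of the 10 genes whose OE values all exceeded all Ctrl values, by a margin of 3.63 for OE 3 against 3.53 for the library labelled Ctrl 1, and 4.59% of genes tested showed such a separation. OE averaged 5.46 ± 2.97 FPKM and Ctrl 1.53 ± 1.73 (SD, n = 3 each). Summed markers of Schwann cells and glia, 6 of 6 with a row and none at 0, ran from 36.2 to 53.4 FPKM in OE and from 28.1 to 53.8 in Ctrl, and their part in the Ptprz1 values was not tested.

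Irx5 codes for an iroquois homeobox transcription factor, mutated in a human syndrome with skull and bone defects (ENSMUSG00000031737, chr8:92357625-92376286, plus strand, up to 5 exons). Levels of 10.8, 6.61 and 4.58 FPKM for OE 1, 2 and 3 stood against 8.33 for the library labelled Ctrl 1, 1.10 for Ctrl 2 and 1.27 for Ctrl 3. Thus the library labelled Ctrl 1 fell between OE 1 and OE 2. OE averaged 7.34 ± 3.18 FPKM and Ctrl 3.57 ± 4.12 (SD, n = 3 each). Irx5 was nearest to the boundary from inside, with the higher of Ctrl 2 and Ctrl 3 at 27.8% of the lowest other library. Tnc was nearest from outside, at 38.8%.

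Ngef codes for ephexin 1, an exchange factor that acts downstream of EphA receptors (ENSMUSG00000026259, chr1:87476834-87573870, minus strand, up to 15 exons). Values were 2.77 FPKM for OE 1, 1.47 for OE 2 and 1.34 for OE 3, while the library labelled Ctrl 1 had 2.51, Ctrl 2 had 0.133 and Ctrl 3 had 0.344. The library labelled Ctrl 1 was second only to OE 1. OE averaged 1.86 ± 0.791 FPKM and Ctrl 0.996 ± 1.32 (SD, n = 3 each). Ngef shares 123 exonic bases with Neu2 on the opposite strand, and the strand setting is not given in the sources used here. Neu2 measured 0.281 to 0.368 FPKM in OE and 0.0667 to 0.552 in Ctrl, and reads of the overlap cannot be told apart without strand.

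**Figure D1:**
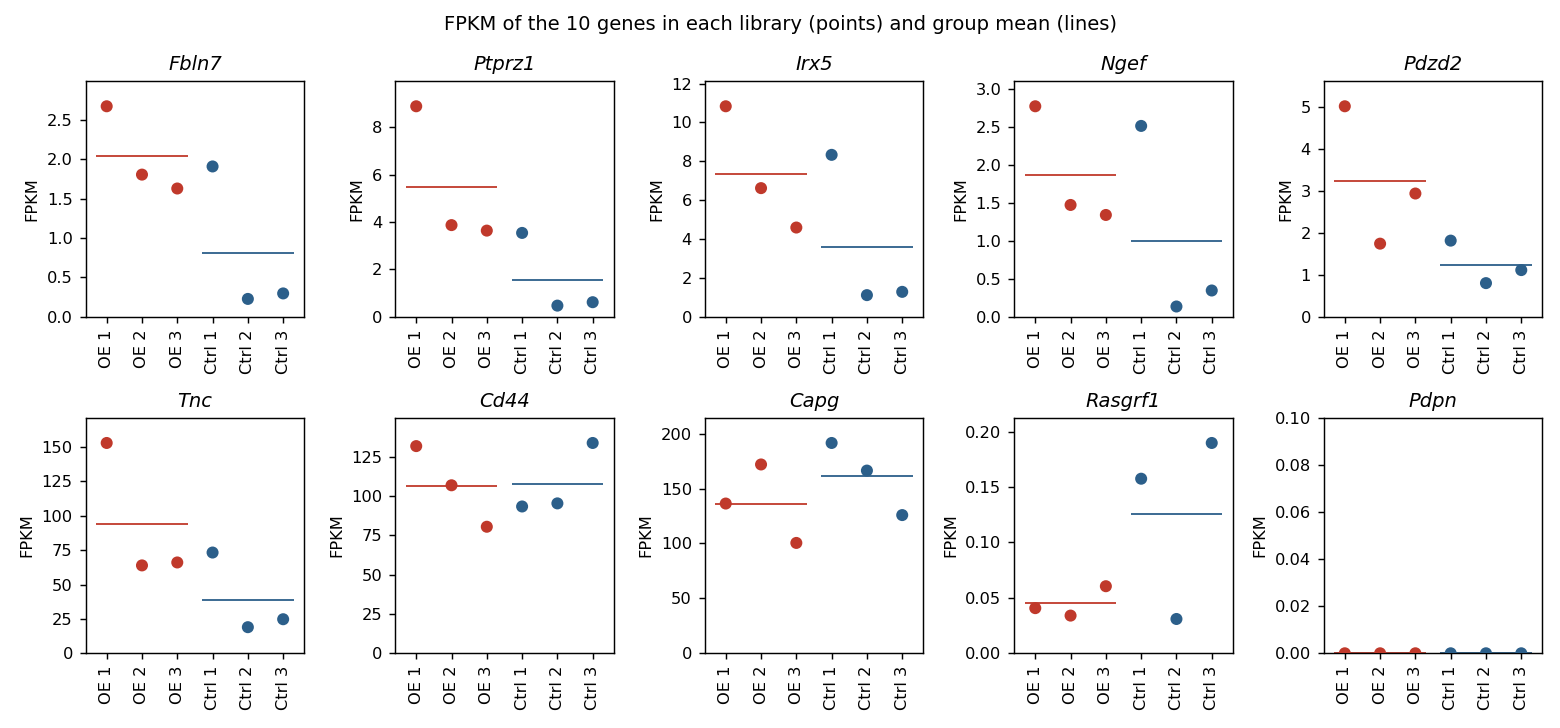
FPKM of the genes on a linear axis, a panel per gene, with 3 OE libraries left of 3 Ctrl libraries, and a point per library. In the panels of Fbln7, Ptprz1, Irx5 and Ngef the points of Ctrl 2 and Ctrl 3 sit far below the others, while Cd44 stays between 80.5 and 134 FPKM and Capg between 100.46 and 191 FPKM.

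The intermediate genes were also lowest in Ctrl 2 and Ctrl 3, by a smaller gap. Tnc codes for tenascin-C, a large matrix glycoprotein of periosteum, tendon and marrow stroma (ENSMUSG00000028364, chr4:63959785-64047015, minus strand, up to 26 exons). It reached 153 FPKM for OE 1, 63.9 for OE 2 and 66.1 for OE 3. The library labelled Ctrl 1 held 73.3, Ctrl 2 held 19.0 and Ctrl 3 held 24.8. OE 1 stood apart on the high side, and the library labelled Ctrl 1 exceeded OE 2 and OE 3. OE averaged 94.3 ± 50.8 FPKM and Ctrl 39.0 ± 29.8 (SD, n = 3 each). Tnc shares 176 exonic bases with 8030451A03Rik on the opposite strand. Summed periosteum and tendon markers ran from 510.6 to 1400 FPKM in OE and from 126.9 to 1184 in Ctrl, with 8 of 8 genes having a row and none at 0. Most of each sum was Ctsk, also listed as an osteoclast marker, at 416 to 1255 FPKM in OE and 104 to 1095 in Ctrl. Postn ran from 37.7 to 74.4 FPKM in OE and from 8.93 to 45.0 in Ctrl. The part of these markers in the Tnc values was not tested.

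Pdzd2 codes for a protein with many PDZ domains, modules that gather membrane proteins into complexes (ENSMUSG00000022197, chr15:12359711-12739924, minus strand, up to 24 exons). It stood at 5.01 FPKM for OE 1, 1.74 for OE 2 and 2.93 for OE 3, against 1.81 for the library labelled Ctrl 1, 0.798 for Ctrl 2 and 1.11 for Ctrl 3. The lowest of the other 4 libraries, OE 2, was only 1.57 times Ctrl 3. OE averaged 3.23 ± 1.66 FPKM and Ctrl 1.24 ± 0.519 (SD, n = 3 each).

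**Figure D2:**
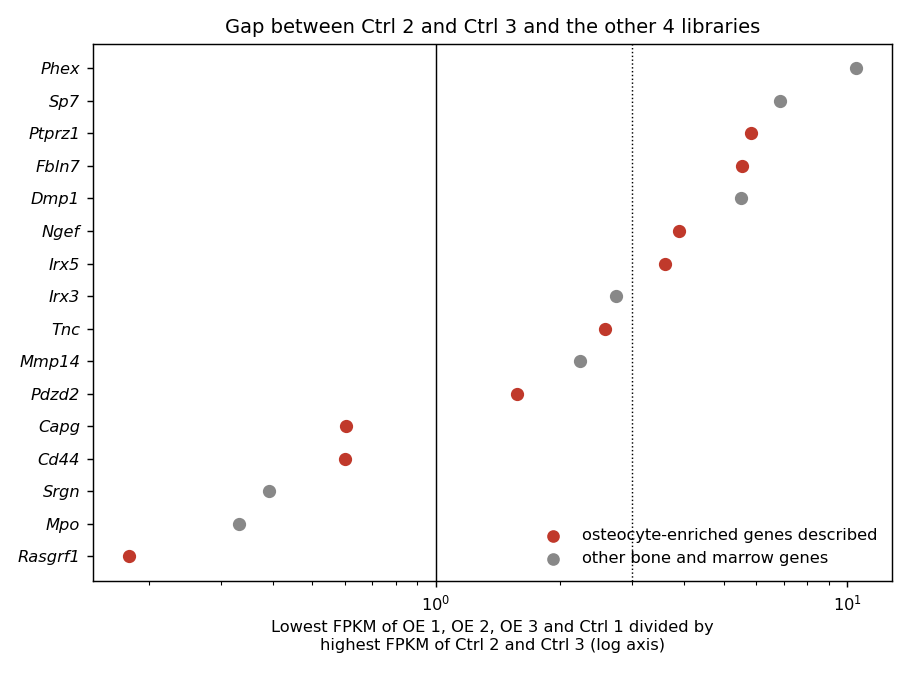
Lowest FPKM among the 3 OE libraries and the library labelled Ctrl 1, divided by the higher FPKM of Ctrl 2 and Ctrl 3, on a log axis, for the genes described and for bone and marrow genes set beside them. Ptprz1 at 5.81 and Fbln7 at 5.53 lie next to Dmp1 at 5.52, Tnc at 2.58 lies near Irx3 at 2.74, and Cd44 at 0.602 and Capg at 0.604 lie on the side of Srgn at 0.393 and Mpo at 0.333.

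The genes also high in marrow were as high in Ctrl 2 and Ctrl 3 as elsewhere. Cd44 (ENSMUSG00000005087, chr2:102811141-102901665, minus strand, up to 19 exons) measured 132 FPKM for OE 1, 107 for OE 2 and 80.5 for OE 3, with 93.4 for the library labelled Ctrl 1, 95.4 for Ctrl 2 and 134 for Ctrl 3. The highest and the lowest library differed by 1.66-fold, and the groups overlapped over nearly their whole range. Capg, which codes for an actin-capping protein of the gelsolin family that is abundant in macrophages (ENSMUSG00000056737, chr6:72544391-72562983, plus strand, up to 11 exons), measured 136, 172 and 100.46 FPKM for OE 1, 2 and 3. In Ctrl it measured 191 for the library labelled Ctrl 1, 166 for Ctrl 2 and 126 for Ctrl 3. The OE and Ctrl ranges of Capg again overlapped. Group means were 106.5 ± 25.7 FPKM in OE and 107.6 ± 22.8 in Ctrl for Cd44, and 136 ± 35.7 in OE and 161 ± 33.1 in Ctrl for Capg (SD, n = 3 each). Summed monocyte and macrophage markers ran from 1227 to 1652 FPKM in OE and from 1506 to 1934 in Ctrl, with 9 of 10 genes having a row and none at 0. Most of each sum was Ly6c2, at 666 to 1307 FPKM in OE and 1153 to 1515 in Ctrl. The other markers did not move alike, with Csf1r highest in OE 1 at 92.9 FPKM and C1qa highest in OE 3 at 113. The part of these markers in the Cd44 and Capg values was not tested.

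Rasgrf1 codes for a calcium-responsive exchange factor for Ras, best known from neurons (ENSMUSG00000032356, chr9:89909908-90026977, plus strand, up to 27 exons). It was at trace level in every library, at 0.0407, 0.0340 and 0.0605 FPKM for OE 1, 2 and 3 and at 0.158, 0.0310 and 0.190 for the library labelled Ctrl 1, Ctrl 2 and Ctrl 3. It was below the filter and was not tested. Pdpn (ENSMUSG00000028583, chr4:143267431-143299564, minus strand, up to 6 exons) was listed at 0 in all 6 libraries, and is one of 2930 rows with a symbol for which this holds. A listed 0 need not mean an absent transcript in these files. Col1a1 and Col1a2, the chains of type I collagen, were listed at 0 by OE 1 and the library labelled Ctrl 1, both of them high in the mean of the other osteoblast markers. As a listed 0 need not mean absence, no level can be given for Pdpn. Lymphatic endothelium is another site of podoplanin. Of its 5 markers 4 had a row with none at 0, summing to 10.1 to 11.1 FPKM in OE and 9.27 to 11.5 in Ctrl. Most of each sum was Flt4, at 7.51 to 8.53 FPKM in OE and 7.76 to 9.10 in Ctrl. Prox1 was at trace level, at 0.0286 to 0.0904 FPKM in OE and 0.0171 to 0.0618 in Ctrl. Whether lymphatic vessels were present was not tested.

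OE was compared with Ctrl gene by gene to ask how switching on Wnt7b in Dmp1-expressing cells went with these genes. Among the 8 genes tested, Ptprz1, Tnc, Irx5, Pdzd2, Fbln7 and Ngef had differences above 0, and those of Cd44 and Capg were below 0, with Cd44 above 0 under both rescalings. None passed at an adjusted p of 0.05 with all 6 libraries. In limma with Benjamini-Hochberg adjustment over 12177 genes, 0 of the 8 genes tested were called, beside 0 genes called in all, which is 0% of those tested. At an unadjusted p under 0.05 there were 3 of the 8 (Ptprz1, Tnc and Pdzd2), 502 genes higher in OE and 497 lower in all, and limma without a trend called 0 genes too. Ptprz1 differed by 1.46 (SE 0.50, 95% interval 0.27 to 2.65) and Tnc by 1.38 (SE 0.555, 0.06 to 2.69), both with an adjusted p of 0.554. Irx5 differed by 1.17 (SE 0.598), Pdzd2 by 0.87 (SE 0.321), Fbln7 by 0.85 (SE 0.361) and Ngef by 0.68 (SE 0.449), with adjusted p from 0.554 to 0.597. For Cd44 the difference was -0.02 (95% interval -0.59 to 0.54, adjusted p 0.979) and for Capg -0.25 (-0.86 to 0.35, adjusted p 0.717). The median difference was 0.86 over the 8 and -0.042 over all 12177 genes tested, of which 5316 had differences above 0. The log2(FPKM + 1) scale understates changes of low genes. The order of the genes depended on the pseudocount. With 0.1 in place of 1, limma gave 2.17 for Ptprz1, 1.72 for Fbln7, 1.54 for Irx5, 1.53 for Ngef, 1.41 for Tnc and 1.26 for Pdzd2, with adjusted p from 0.547 to 0.562. Single libraries moved some values by over 1.5 times. Ngef fell to 0.36 without Ctrl 2 and Pdzd2 to 0.58 without OE 1, while Ngef and Irx5 increased without the library labelled Ctrl 1.

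Leaving out the library labelled Ctrl 1 moved the same comparison past the threshold for 3 genes. In limma with the 5 remaining libraries the difference was 1.86 for Irx5 (SE 0.314, adjusted p 0.0271), 1.25 for Fbln7 (SE 0.214, adjusted p 0.0282) and 1.98 for Ptprz1 (SE 0.35, adjusted p 0.0312). In that comparison 4.25% of genes tested were called higher in OE. The comparison sets OE against Ctrl 2 and Ctrl 3, whose low values also sorted these genes as bone-restricted, and Fbln7 and Ptprz1 passed the filter only through the libraries where they were high. The calls and the sorting are therefore 2 descriptions of the same values, and neither is support for the other. Tnc at 1.95 (SE 0.405, adjusted p 0.051), Ngef at 1.18 (SE 0.265, adjusted p 0.0665) and Pdzd2 at 1.04 (SE 0.335, adjusted p 0.17) did not pass. Cd44 at -0.11 (adjusted p 0.878) and Capg at -0.12 (adjusted p 0.874) did not pass either. With all 6 libraries weighted by how far each departed from the fit, limma called 6 of the 8, all but Cd44 and Capg, beside 8.18% of genes tested called higher in OE. Ctrl 2 then had a weight of 5.825 against 0.414 to 1.355 for the other libraries, and the 6 are those sorted into the bone pattern by the same low values, so nothing is read from this count. Markers of other tissues moved with the same contrast. Summed cartilage markers were 352.3 to 646 FPKM in OE, 19.6 to 426.2 in Ctrl, and summed skeletal muscle markers ran from 1255 to 1626 in OE and from 220.7 to 1442 in Ctrl. All 10 cartilage markers and 7 of 8 muscle markers had a row, none was at 0, and their part in the differences was not tested.

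**Figure D3:**
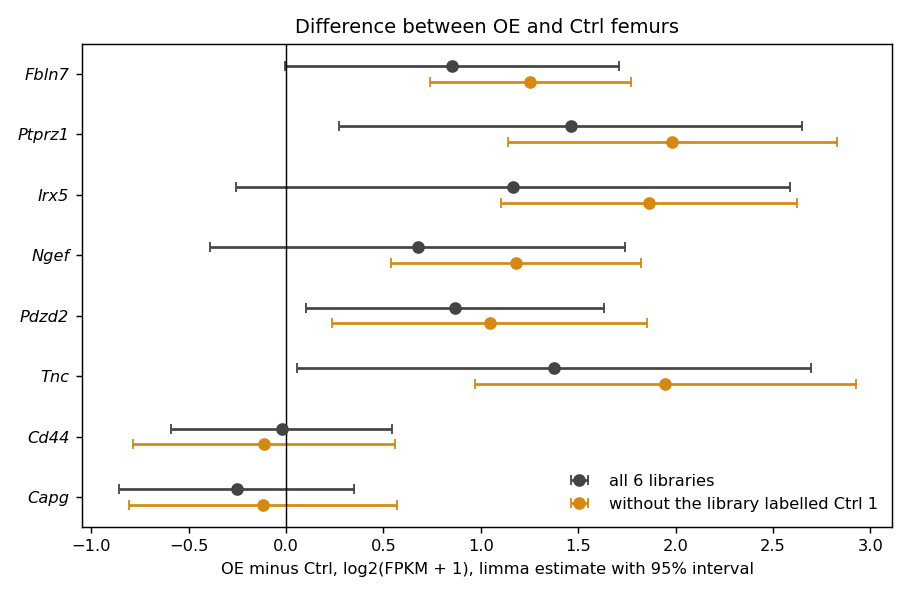
Difference of OE minus Ctrl in log2(FPKM + 1) with its 95% interval from limma, for the 8 genes tested, with all 6 libraries and without the library labelled Ctrl 1. The points of Ptprz1, Irx5 and Fbln7 lie further right without the library labelled Ctrl 1, at 1.98, 1.86 and 1.25, while Cd44 and Capg stay near 0.

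The 6 genes with the bone pattern were also set against Dmp1, a matrix phosphoprotein of osteocytes, a comparison chosen after the values were seen. Dmp1 read 215, 109 and 83.8 FPKM for OE 1, 2 and 3, then 141 for the library labelled Ctrl 1, 14.6 for Ctrl 2 and 15.2 for Ctrl 3. Per 100 FPKM of Dmp1, Fbln7 came to 1.24, 1.66 and 1.94 FPKM for OE 1, 2 and 3, and to 1.36, 1.54 and 1.94 for the library labelled Ctrl 1, Ctrl 2 and Ctrl 3. The ratios that follow keep this order of libraries. The highest and lowest Fbln7 ratio differed by 1.56-fold and the groups overlapped. Ptprz1 gave ratios of 4.12, 3.54 and 4.33 in OE, against 2.51, 3.17 and 4.0 in Ctrl, a 1.73-fold range with overlapping groups. For Irx5 the ratios were 5.03, 6.06 and 5.47 in OE and 5.91, 7.56 and 8.38 in Ctrl, so Ctrl 2 and Ctrl 3 were the highest. Ngef spread by 2.49-fold, from 1.29 to 1.60 in OE and from 0.909 to 2.26 in Ctrl. Tnc and Pdzd2 had the widest ranges. Tnc stood at 71.0, 58.6 and 78.8 in OE and at 52.0, 129.9 and 163 in Ctrl, and Pdzd2 at 2.33, 1.59 and 3.50 in OE and at 1.28, 5.46 and 7.30 in Ctrl. For both, Ctrl 2 and Ctrl 3 lay above every other library. This largely restates the sorting, where the gap was 2.58 for Tnc and 1.57 for Pdzd2 beside 5.52 for Dmp1. A gene with a smaller gap than Dmp1 tends to rise in Ctrl 2 and Ctrl 3 once divided by it, so nothing further is read from these ratios. Which genes had Ctrl 2 and Ctrl 3 on top also depended on the gene divided by. Per 100 FPKM of Sp7, a transcription factor of osteoblasts, Fbln7 came to 6.82, 7.52 and 8.92 in OE and to 6.83, 9.57 and 11.05 in Ctrl, so that Ctrl 2 and Ctrl 3 were the highest for Fbln7 too. On that scale the same held for Irx5, Tnc and Pdzd2 and did not hold for Ptprz1 and Ngef.

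**Figure D4:**
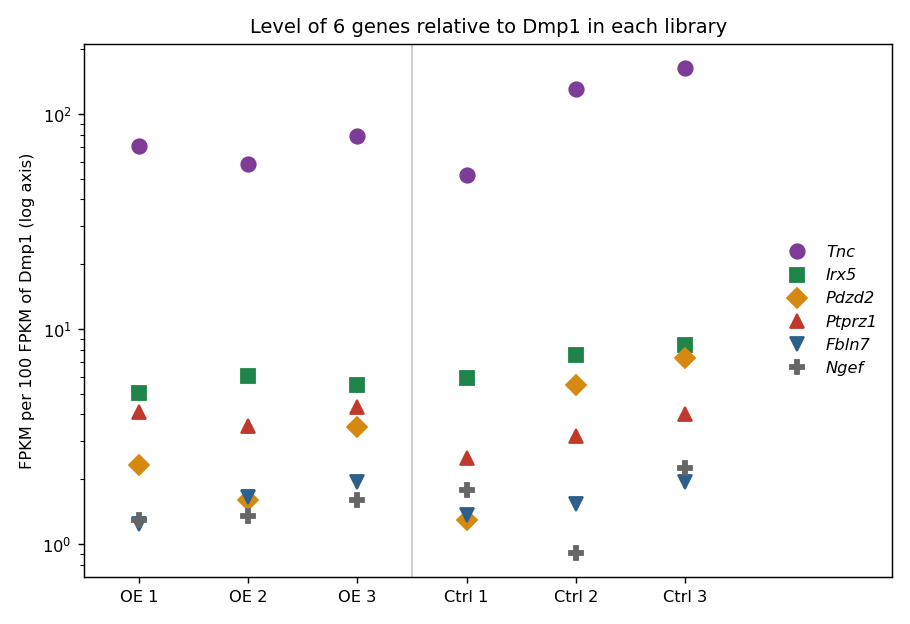
FPKM per 100 FPKM of Dmp1 on a log axis for the 6 genes with the bone pattern, with OE libraries left of Ctrl libraries. Fbln7 varies by 1.56-fold over the 6 libraries and Ptprz1 by 1.73-fold, while Tnc varies by 3.14-fold and Pdzd2 by 5.68-fold, with Ctrl 2 and Ctrl 3 on top.

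Likeness of pattern was measured as the root mean square difference between mean-centred log2(FPKM + 1) values over the 6 libraries, where 0 is identity. The genes nearest to Fbln7 were Vstm4 at 0.038, Nuak1 at 0.054 and Smarcd3 at 0.059, beside a median of 0.668 over all genes tested. The nearest genes are picked as the smallest differences, so they lie far below the median by selection. The medians give only a scale. Nearest to Ptprz1 were Prrx1 at 0.08, Gxylt2 at 0.082 and Cdh11 at 0.106, beside a median of 1.017. Prrx1 codes for a homeobox factor of limb mesenchyme and Cdh11 for osteoblast cadherin. Roles are given here for only some of the nearest genes, and nearness does not place a gene in a cell type. Irx5 was closest to Efs at 0.061, Bcan at 0.063 and P3h1, a collagen prolyl hydroxylase, at 0.065 (median 1.007). For Ngef they were Speg at 0.065, Rhbdf1 at 0.078 and Nckap5l at 0.081 (median 0.707). Pdzd2 came nearest to Cmtm4 at 0.085, Plxna1 at 0.092 and Coro6 at 0.094 (median 0.65). For Tnc the list held Farp2 and Gprc5c, both at 0.101, and the semaphorin co-receptor Nrp2 at 0.109 (median 1.041). Cd44 was nearest to the ubiquitin ligase Cbl at 0.037, Zfp518b at 0.038 and Olr1 at 0.052 (median 0.355). Capg was nearest to Nhej1 at 0.028, Rnf25 at 0.033 and Borcs6 at 0.035 (median 0.351). Among the 10 genes themselves, Ptprz1 and Tnc were the closest pair at 0.113, followed by Fbln7 and Ngef at 0.159.

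**Figure D5:**
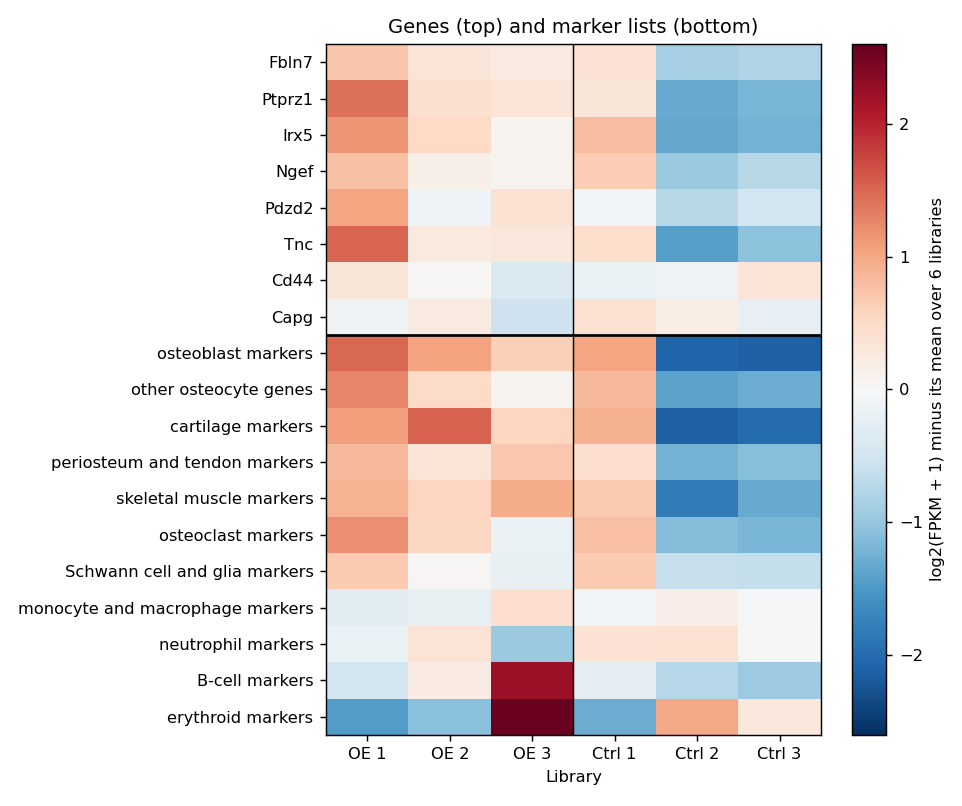
Mean-centred log2(FPKM + 1) of the genes tested and of the marker lists, with OE libraries left of Ctrl libraries and colour for the departure from the mean of each row. The genes with the bone pattern, the osteoblast, cartilage and muscle markers all have their lowest values in Ctrl 2 and Ctrl 3, and the B-cell and erythroid markers have their highest in OE 3.

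Partners and relatives of the genes were read from the same fit, and 0 of any list were called with all 6 libraries. Counts of positive genes below stand beside 5316 positive of the 12177 genes tested. Genes named below because they passed without the library labelled Ctrl 1 were chosen after their values were seen. Of the 3 ligands of PTPRZ1 tested, Ptn and Mdk were lowest in Ctrl 2 and Ctrl 3 and Il34 was not. Pleiotrophin (Ptn) measured 12.6, 8.96 and 5.85 FPKM for OE 1, 2 and 3, then 8.29 for the library labelled Ctrl 1, 0.755 for Ctrl 2 and 0.887 for Ctrl 3. Midkine (Mdk) measured 12.6, 16.0 and 14.6 FPKM in OE, 15.5 for the library labelled Ctrl 1, 5.86 for Ctrl 2 and 4.38 for Ctrl 3. Without the library labelled Ctrl 1, limma gave a rise of 2.42 (adjusted p 0.0103) for Ptn and 1.33 (adjusted p 0.0141) for Mdk, where 4.25% of genes tested were called higher. The cytokine Il34 measured 0.966, 0.668 and 7.09 FPKM in OE, 1.64 for the library labelled Ctrl 1, 2.81 for Ctrl 2 and 2.601 for Ctrl 3, with a difference of -0.15 over all 6 libraries (adjusted p 0.94). Of the 6 ligands and substrates of PTPRZ1 tested, 5 were positive with all 6 libraries, with a median difference of 0.45, and the most abundant were Ctnnb1 at a mean of 140 FPKM, Fyn at 21.6 and Git1 at 16.9.

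For the matrix genes, the fibulin family had 4 members tested, all positive, with a median difference of 0.47. Efemp2, Fbln5 and Fbln1 were the most abundant at means of 17.1, 7.41 and 6.24 FPKM, and Efemp2 was the single one called higher without the library labelled Ctrl 1. In the tenascin family and its receptors, 5 of 6 tested were positive with a median of 0.77, led in level by the integrin chains Itgb3 at a mean of 101 FPKM, Itgb1 at 86.0 and Itgav at 19.3. Itgav and Sdc4, a syndecan, were called higher without the library labelled Ctrl 1. In the iroquois family only Irx3 passed the filter, at 9.28, 5.11 and 3.69 FPKM for OE 1, 2 and 3 and at 6.88, 1.35 and 1.32 for the library labelled Ctrl 1, Ctrl 2 and Ctrl 3. Irx3 lies 555557 bases from Irx5 on mm10 chromosome 8 and likewise had the library labelled Ctrl 1 between OE 1 and OE 2. Irx6, also of this cluster and 298001 bases from Irx5, reached at most 0.618 FPKM, in OE 3.

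Of 9 CD44 ligands and hyaluronan enzymes tested, 6 were positive with a median of 0.05, and the most abundant were osteopontin (Spp1) at a mean of 996 FPKM, Mmp9 at 871 and serglycin (Srgn) at 854. Without the library labelled Ctrl 1, Spp1, the hyaluronan-degrading factor Cemip and the membrane protease Mmp14, which cleaves CD44, were called higher. Hyaluronan synthases Has1, Has2 and Has3 stayed below 1 FPKM in every library. Among partners of podoplanin, 5 of 10 were positive with a median of 0.07, and Rhoa, Cd9 and moesin (Msn) averaged 233, 207 and 194 FPKM. Clec1b, the platelet receptor for podoplanin, was at 9.89, 21.1 and 68.6 FPKM for OE 1, 2 and 3 and at 19.2, 56.1 and 41.7 for the library labelled Ctrl 1, Ctrl 2 and Ctrl 3. Gelsolin relatives and capping proteins of Capg had 1 of 7 positive with a median of -0.24, and Capzb, Gsn and Capza1 averaged 289, 199 and 155 FPKM.

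Relatives of Ngef and its Eph receptors had 6 of 8 positive with a median of 0.39, and Cdc42, Rac1 and Ephb4 averaged 342, 189 and 4.89 FPKM. Relatives of Rasgrf1 and the Ras proteins had 5 of 10 positive with a median of 0.00, led by Rasgrp2 at 234 FPKM, Nras at 91.9 and Rasgrp4 at 73.3. No gene of these lists or of the podoplanin and capping lists was called without the library labelled Ctrl 1. Other osteocyte genes, listed for comparison, had 10 of 11 positive with a median of 1.24, and 6 of them (Dmp1, Phex, Gja1, Ackr3, Kcnk2 and Mmp14) were called higher without the library labelled Ctrl 1, beside 4.25% of all genes tested. All medians here are beside -0.042 over all genes tested.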

How the data were processed

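Femur RNA of 3 OE and 3 Ctrl libraries was measured by paired-end sequencing. The deposited values are FPKM, per the file headers, for 22824 rows a library, of which 1218 are unannotated. TopHat2, Cufflinks and DESeq were used with mm10, per the submitters' processing notes. Their roles and versions were not given in the sources used here. FPKM is scaled to each library's total, so a few abundant genes lower all others: S100a8 and S100a9 together took 7.25% to 16.3% of FPKM.

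Ensembl identifiers were matched to GENCODE M21 (GRCm38, the assembly named mm10), giving 21172 symbols. The main test was limma 3.58.1 in R 4.3.3 (lmFit and eBayes with trend) on log2(FPKM + 1), for the 12177 genes that reached 1 FPKM in 3 or more libraries, with Benjamini-Hochberg adjustment over all of them. The steps were tested on simulated data. Python 3.11.15, pandas 2.3.3 and matplotlib 3.10.9 made tables and plots.

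The genes, the 24 lists and the tests were chosen with earlier results of these data known. Genes named in the text were the 10 genes, the 3 tested genes nearest in pattern to each, and in each list of partners those past the threshold or else the 3 with the highest mean FPKM. Of 213 list entries, 6 were not analysed here. Proteins of the genes were not used here. Alternatives were no filter, a filter of 5 FPKM, a pseudocount of 0.1, 2 rescalings, no trend, array weights, a replicate block and leaving out libraries.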

Additional observations from a re-analysis of the deposited data

How the results depend on the processing

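With all 6 libraries at equal weight 0 genes were called, also with no filter, a filter of 5 FPKM, a pseudocount of 0.1, either rescaling or no trend. Array weights called 1394 of 12177 genes, 996 of them (8.18% of genes tested) higher in OE, with 6 of the 8 tested here among them. Without both OE 3 and the library labelled Ctrl 1, limma called 1388 of 12177 genes, 964 of them higher in OE, with 5 of the 8 among them. Leaving out 1 library at a time called 0 to 597 genes and 0 to 3 of the 8. Every such call came without the library labelled Ctrl 1, where 4.25% of genes tested were called higher. The calls of these genes rest on the low Ctrl 2 and Ctrl 3 values that also sorted them, so nothing is read from their counts. A replicate block called 0 genes (smallest adjusted p 0.191). Same-numbered libraries had deviations correlated at 0.442, 0.087 and 0.311, so the numbers were not taken to pair them, and OE 2 correlated best with the library labelled Ctrl 1, at 0.143, rather than with its own number. Cd44 turned positive at 0.047 under trimmed-mean scaling, 0.073 when scaled without marrow and muscle markers, 0.196 with array weights and 0.071 without both OE 3 and the library labelled Ctrl 1, where Capg turned to 0.081. Leaving out 1 library at a time gave Cd44 from -0.191 to 0.161, positive without OE 3 or without Ctrl 3. Over 116 alternatives for single genes, 95 kept direction and side of the threshold, 14 moved past it and 7 changed sign. Both rescalings kept 6 genes with the bone pattern and 4 bone-restricted, and moved the median of all genes by less than 0.1 on the log2 scale. FPKM without counts gives no counting error for low genes such as Rasgrf1.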
